A study of Mus musculus with 30 samples.

Results

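The genes followed here are 42 mouse genes of the type I interferon response in sorted microglia, comprising receptor chains and transcription factors, nucleic acid sensors, the Ifit and Oas families, the ISG15 pathway, other antiviral effectors, guanylate-binding GTPases and a few further induced genes. They were taken as a listed set of symbols, each of which matched 1 Ensembl gene among the 47643 genes of the deposited table, which gives levels as FPKM, that is, fragments per kilobase of transcript at a fixed number of mapped reads. RNA of CD11b+ CD45med microglia from 3 month-old mice was sequenced in 30 libraries, each named by genotype, sex and mouse number, as in WT-M-0202. Homo mice were Bin1 flox/flox::Cx3Cr1-Cre+ (5 male, 5 female), Het mice were Bin1 wt/flox::Cx3Cr1-Cre+ (6 male, 5 female), and WT mice (5 male, 4 female) carried Bin1 wt/flox without Cre. Cre is driven from the *Cx3cr1* locus, which is active in microglia and other myeloid cells, and the Cre allele came together with the loss of the first *Bin1* copy. The labels also carry a protocol for microglia in culture. The sort of the study's methods was taken as the source of the cells here.

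Type I interferons are secreted on sensing of viral or misplaced nucleic acid and bind a receptor made of IFNAR1 and IFNAR2, found on nearly all nucleated cells. The kinases JAK1 and TYK2 then activate STAT2, which acts with IRF9 in a complex that binds the interferon-stimulated response element (ISRE) in the promoters of its target genes. Microglia keep a low tone of this response in the healthy brain, and stronger forms of it are known in infection, ageing and models of neurodegeneration.

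All 42 genes had a mean FPKM of at least 0.1, the filter of the test, and 37 had a mean of at least 1. The receptor genes were well expressed, with a mean over the 30 libraries of 44.1 FPKM for *Ifnar1* (range 36.3 to 55.2) and 182 FPKM for *Ifnar2* (127 to 212). Their downstream factors had 40.9 FPKM for *Irf9* (32.3 to 48.8), 9.66 FPKM for *Stat2* (7.40 to 13.2) and 7.01 FPKM for *Irf7*, the inducible factor of the interferon loop (3.33 to 20.9). *Bst2*, whose product tethers virions to the cell surface, followed *Ifnar2* in level at 80.2 FPKM (59.7 to 100.3). The Oas genes, which encode RNA-activated oligoadenylate synthetases and relatives, were low, between 0.227 FPKM for *Oas3* and 6.38 FPKM for *Oas1a*. The 5 members with a mean below 1 FPKM were *Oas2*, *Oas3*, *Oasl1*, *Rsad2* and *Ifi44*. Of the ligands, *Ifnb1* was listed at 0 in 15 libraries and reached 0.447 FPKM, and *Ifna1* and *Ifna4* were listed at 0 in all 30.

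The libraries carried microglial RNA, with a summed level of 8 microglial markers between 18760 and 26240 FPKM, whereas 6 lymphocyte markers summed to at most 0.67 FPKM. The sums of other cell types were higher. They reached 349 FPKM for 8 neutrophil, 105 FPKM for 3 oligodendrocyte, 36.5 FPKM for 5 border macrophage and 18.7 FPKM for 6 monocyte markers. In bulk RNA, a change in the number of cells of a type and a change in RNA per cell cannot be told apart. *Bin1* was between 230 and 290 FPKM in the WT libraries and between 39.5 and 55.6 FPKM in those of Homo mice. *Cx3cr1* was between 1829 and 2344 FPKM in WT libraries. It was between 726 and 1242 FPKM in Homo and between 610 and 1209 FPKM in male Het libraries. Of the Het libraries, the library labelled Het-F-0206 had only 42.7 FPKM of *Bin1* and 13.9 FPKM of *Cx3cr1*, against 1048 to 1243 FPKM of *Cx3cr1* in the other female Het libraries, and the library labelled Het-M-0199 had 51.8 FPKM of *Bin1*. Both go against their labels, so the main Het results are also given without them. WT-M-0202 stood apart in the interferon genes themselves. All fold changes below are log2(scaled FPKM + 0.1) differences, which understate the change of low genes, and a gene was called at a Benjamini-Hochberg adjusted p below 0.05 by limma with a fold change above 1.5. The Het and Homo comparisons of a sex share their WT libraries.

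The promoters of several of these genes carry the ISRE in plain form, shown here because these are the letters that the complex with IRF9 is known to bind. RefSeq promoter windows (build GRCm38.p6, 250 bases before to 50 after the start) were listed for 32 of the 42 members. The motif searched was GAAA, any 2 bases, and GAAA, on either strand, with overlapping matches counted. It was found in 17 of the 32 members (53.1%), against 3.99% of all 27025 genes with a window. The stretches below run 5′ to 3′ on the strand of the gene, end before its start, and have the ISRE matches in capitals. They lie at chr4:156200860-156200911 (minus strand, *Isg15*), chr19:34583358-34583431 (plus, *Ifit3*), chr19:34640770-34640828 (plus, *Ifit1*), chr12:26456548-26456587 (minus, *Rsad2*), chr5:120907526-120907560 (minus, *Oas1a*) and chr3:142559984-142560029 (plus, *Gbp3*).
Isg15: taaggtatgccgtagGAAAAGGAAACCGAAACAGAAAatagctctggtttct
Ifit3: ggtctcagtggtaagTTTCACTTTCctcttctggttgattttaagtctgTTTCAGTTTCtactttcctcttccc
Ifit1: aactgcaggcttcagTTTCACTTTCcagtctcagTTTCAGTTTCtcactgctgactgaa
Rsad2: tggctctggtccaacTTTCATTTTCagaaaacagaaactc
Oas1a: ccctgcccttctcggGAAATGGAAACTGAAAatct
Gbp3: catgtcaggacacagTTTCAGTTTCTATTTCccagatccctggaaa
*Isg15* held 3 overlapping matches, and *Ifit3*, *Ifit1*, *Oas1a* and *Gbp3* held 2 each. No match was found in the windows of *Ifi44*, *Irf7*, *Irf9*, *Ifnar1* and *Ifnar2*, which says only that these letters are not there.

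In male WT mice, 1 library stood apart from the other 4 in many of the genes. *Ifit3*, which encodes a protein that binds and blocks foreign RNA together with the other IFIT proteins, had 36.0 FPKM in WT-M-0202 and 7.52, 8.18, 9.87 and 10.1 FPKM in the other 4 male WT libraries. WT-M-0202 was therefore 4.00-fold above the median of the others, and above every other library of the series. *Isg15*, the ubiquitin-like protein conjugated during the response, had 19.2 FPKM in WT-M-0202 and 3.51, 4.13, 5.58 and 6.70 FPKM in the others. *Usp18*, the protease that removes ISG15 and restrains the receptor, had 17.5 FPKM there and 4.65, 5.45, 5.45 and 5.74 FPKM in the others. *Isg15* and *Usp18* were thus high in the same library, which says nothing about the enzymes that conjugate ISG15. *Irf7* had 20.9 FPKM against 4.45, 5.88, 6.13 and 6.4 FPKM, so the groups of libraries were again far apart. Except for *Irf7*, *Irf9*, *Ifnar1*, *Ifnar2* and *Gbp7*, these genes and those named for this library in the next paragraph were chosen after their values were seen.

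Across the set, WT-M-0202 was the highest of the 5 male WT libraries in 29 of 42 genes (69.0%), against 25.8% of the 16897 genes tested. It was the highest of all 30 libraries in 14 genes and at least 2-fold above the median of the other male WT libraries in 19. Among these were *Rsad2* (2.36 FPKM, 3.96-fold), which encodes the nucleotide-modifying enzyme viperin, and *Cmpk2* (2.95 FPKM, 3.87-fold), the nucleotide kinase encoded beside it. *Ifit2* (13.6 FPKM, 3.81-fold), *Mx1* (4.34 FPKM, 3.44-fold), a dynamin-like antiviral GTPase, and *Zbp1* (3.78 FPKM, 3.71-fold), a sensor of Z-form nucleic acid, were also in this group. The receptor genes did not stand out, with 0.933-fold for *Ifnar1* and 0.924-fold for *Ifnar2*, nor did *Irf9* (1.09-fold), *Gbp7* (1.02-fold) or the RNA sensor *Ifih1* (0.919-fold). Of the members with a promoter window, the ISRE was found in 8 of the 14 that were at least 2-fold higher in WT-M-0202 and in 9 of the other 18. The same library had the highest summed level of 8 neutrophil markers (349 FPKM, others of male WT 43.9 to 108.6) and of 6 monocyte markers (18.7 FPKM, all libraries 3.41 to 18.7), and the next to highest of 5 border macrophage markers (33.0 FPKM). Their part in the levels of the interferon genes was not tested.

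**Figure D1:**
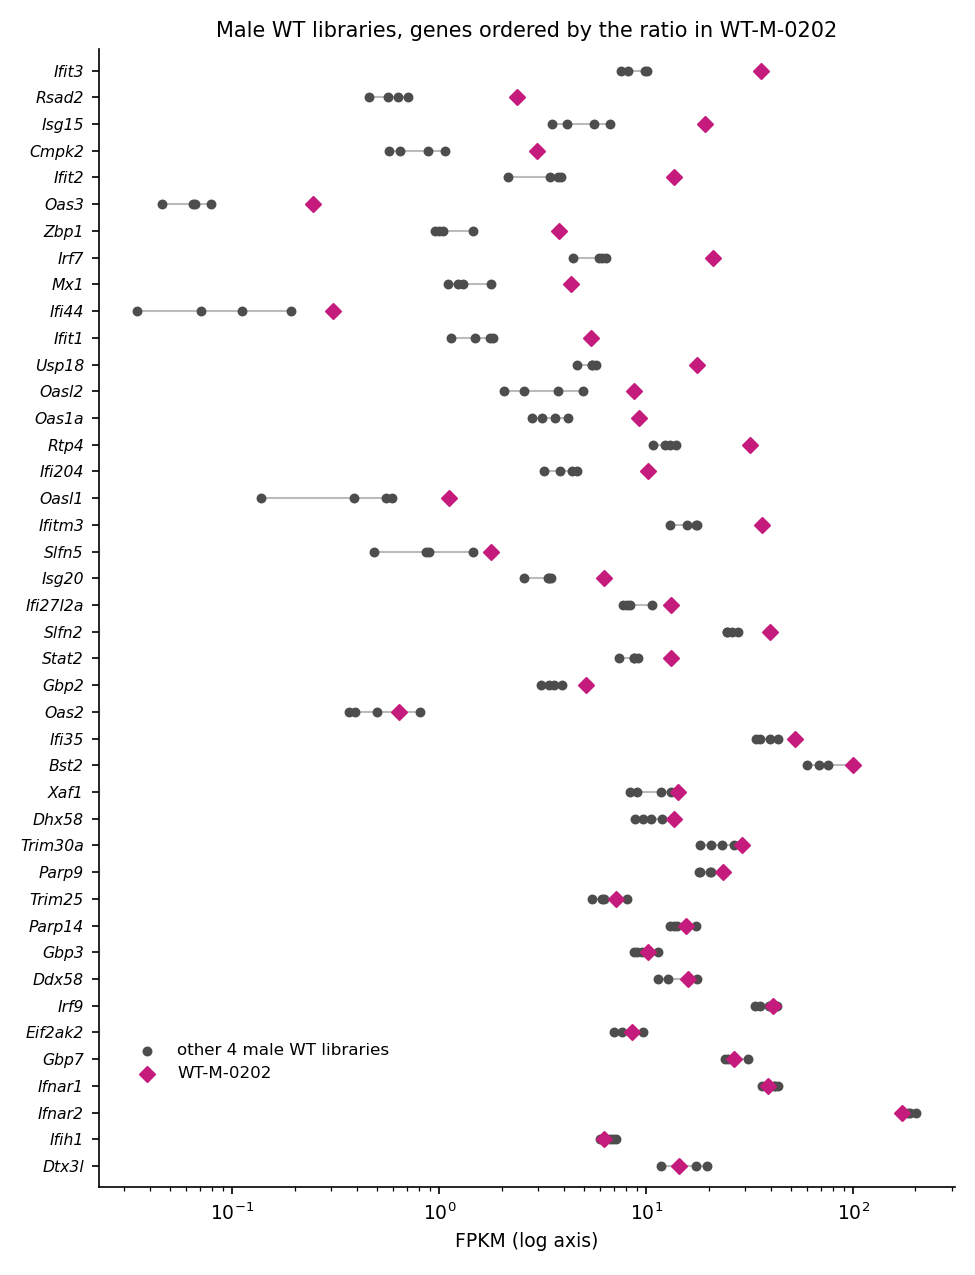
FPKM (log axis) of the 42 genes in the 5 male WT libraries, ordered by the ratio of WT-M-0202 (diamonds) to the median of the other 4 (circles, joined by a line over their range). The diamond lies to the right of all circles in 29 genes, from *Ifit3* at 4.00-fold down, and within or below them in *Ifnar1*, *Ifnar2* and *Ifih1*.

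For each library, the deviation of each gene from its median over the 30 libraries was taken on the log2 scale, and the median over the 42 genes was used as a description. It was 0.40 in WT-M-0202 and between -0.23 and -0.08 in the other 4 male WT libraries. In females it was -0.13, -0.11, -0.07 and -0.07 in WT, between 0.01 and 0.29 in the 5 Homo libraries (median 0.05) and between -0.07 and 0.32 in the 5 Het libraries (median 0.11). The female WT libraries thus lay below every female Homo library, whereas 1 female Het library, Het-F-0205, lay within the WT range. Apart from WT-M-0202, the highest libraries were Het-F-0220 (0.32), Homo-F-0234 (0.29), Het-F-0206 (0.25) and Het-M-0108 (0.20). Homo-F-0234 was the highest of its group in 24 genes (57.1%, against 15.2% of all genes) and Het-M-0108 in 21 (50%, against 15.8%).

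**Figure D2:**
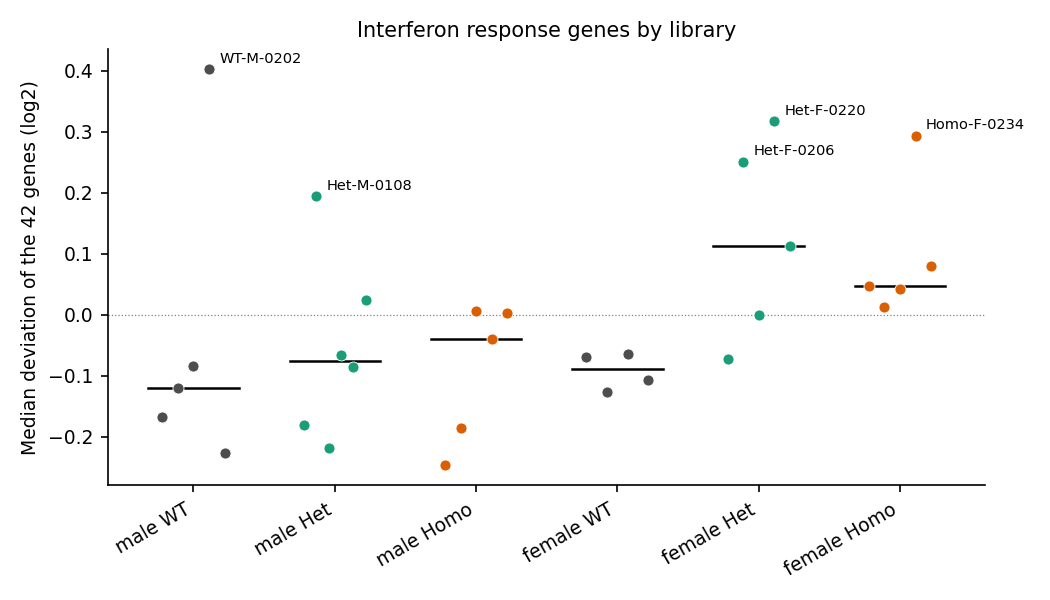
Median deviation of the 42 genes from their medians over 30 libraries (y axis, log2) by group, with 1 point per library and a bar at the group median. WT-M-0202 (0.40) is the highest point, and the 4 female WT libraries lie below all 5 female Homo libraries.

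In female mice, 1 of the 42 genes passed the test in Het against WT and 0 in Homo against WT, while most of the others lay on the higher side. *Ifi44*, an interferon-induced gene with a GTP-binding domain, had 0, 0.0293, 0.186 and 0.328 FPKM in WT mice and 0.644, 0.720, 0.921, 0.986 and 2.32 FPKM in Het mice. All Het libraries were above all WT libraries, and the highest was Het-F-0206. *Ifi44* (ENSMUSG00000028037, chr3:151730922-151749960 of GRCm38, minus strand) rose by 2.48 ± 0.49 (log2, SE) in Het mice, with an adjusted p of 0.0194 by limma. Without Het-F-0206, the log2 fold change was 2.20 with a limma adjusted p of 0.116, and the call was lost. It was also lost without WT-F-0192 (adjusted p = 0.126) or WT-F-0207 (0.135), and the fold ranged from 0.87 with a pseudocount of 1 to 3.83 with 0.01 (limma).

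In Homo mice, *Ifi44* had 0.217, 0.308, 0.761, 0.89 and 0.914 FPKM. The lower Homo values fell within the range of WT, and the difference of 1.71 ± 0.49 (log2, SE) had a limma adjusted p of 0.469. *Oas1a*, which encodes a synthetase of the messenger that activates RNase L, had 4.03, 4.15, 4.80 and 5.15 FPKM in WT, 6.46, 6.66, 8.88, 9.09 and 11.8 FPKM in Het, and 4.52, 6.30, 6.38, 7.47 and 9.93 FPKM in Homo mice. Het and WT did not overlap, whereas the lowest Homo library lay within WT. The highest Het value was in Het-F-0206. The log2 differences were 0.87 ± 0.25 (SE, adjusted p = 0.279, limma) for Het, 0.76 ± 0.26 (adjusted p = 0.863) for Het without the 2 libraries that go against their labels, and 0.56 ± 0.25 (adjusted p = 1, limma) for Homo.

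*Ifi204*, one of the DNA-sensing PYHIN proteins, showed a like order, with 2.64, 3.70, 4.12 and 4.56 FPKM in WT and 5.03, 5.75, 7.82, 8.34 and 12.4 FPKM in Het mice. In Homo mice it was 4.30, 4.98, 6.48, 6.83 and 7.62 FPKM. Het values did not overlap with WT (1.00 ± 0.29, log2 ± SE, limma adjusted p = 0.291), also without Het-F-0206, the highest (0.82 ± 0.29, adjusted p = 0.912, Het-M-0199 also left out), and 1 Homo value did (0.67 ± 0.29, adjusted p = 1). *Oasl1*, an Oas-like protein that restrains translation of *Irf7*, had 0.283, 0.375, 0.493 and 0.666 FPKM in WT and 0.803, 0.897, 1.10, 1.22 and 1.65 FPKM in Homo mice. Here Homo and WT did not overlap (1.16 ± 0.36, limma adjusted p = 0.658), and in Het mice (0.588 to 1.36 FPKM) the lowest value did (0.92 ± 0.36, adjusted p = 0.918). *Dhx58*, which encodes the RNA sensor LGP2, had 12.7 to 14.8 FPKM in Homo, 11.1 to 15.5 FPKM in Het and 10.1 to 13.4 FPKM in WT mice, with limma adjusted p-values of 1 in both comparisons.

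Counted over the set, 32 of 42 genes were higher and 10 lower in female Homo than WT mice, with a median log2 fold change of 0.22 (all genes 0.00). In female Het mice, 35 were higher and 7 lower, with a median of 0.23 (all genes 0.00). Without Het-F-0206, 35 were still higher and the median was 0.19. By limma, 7 of 42 genes reached an unadjusted p below 0.05 in Homo mice (3.49% over the whole table) and 7 in Het mice (3.95% over the whole table), all of them higher. These comparisons called 0.071% and 0.13% of all genes. Libraries of Homo mice lay above all those of WT in 3 members, *Ifih1*, *Ifit3* and *Oasl1* (all genes 1.65%), and below in 0 (0.663%). Those of Het mice lay above in *Ifi204*, *Oas1a* and *Ifi44* (1.58%) and below in 0 (0.633%). The 3 Ifit members were higher in both comparisons (0.26 to 0.65, log2), as were the 5 Oas members (0.17 to 1.16), and none of these passed the test. Under no scaling and quantile normalization these directions were kept in all 8 genes. Oas genes outside the set were mixed. In Het and Homo mice *Oas1b* was at -0.34 and -0.02 (log2), *Oas1c* at -0.045 and 0.38, and *Oas1g* at 1.72 and 2.15, with no call. *Ifit3* had 6.48, 7.96, 8.05 and 8.53 FPKM in female WT and 9.83, 10.7, 12.1, 13.8 and 15.2 FPKM in female Homo mice, which did not overlap (0.65 ± 0.31, limma adjusted p = 1). This gene was chosen after its values were seen. Neutrophil markers summed to between 6.80 and 159 FPKM in female WT, 0 and 88.3 FPKM in Het and 0.219 and 72.1 FPKM in Homo mice, and their part in these differences was not tested.

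**Figure D3:**
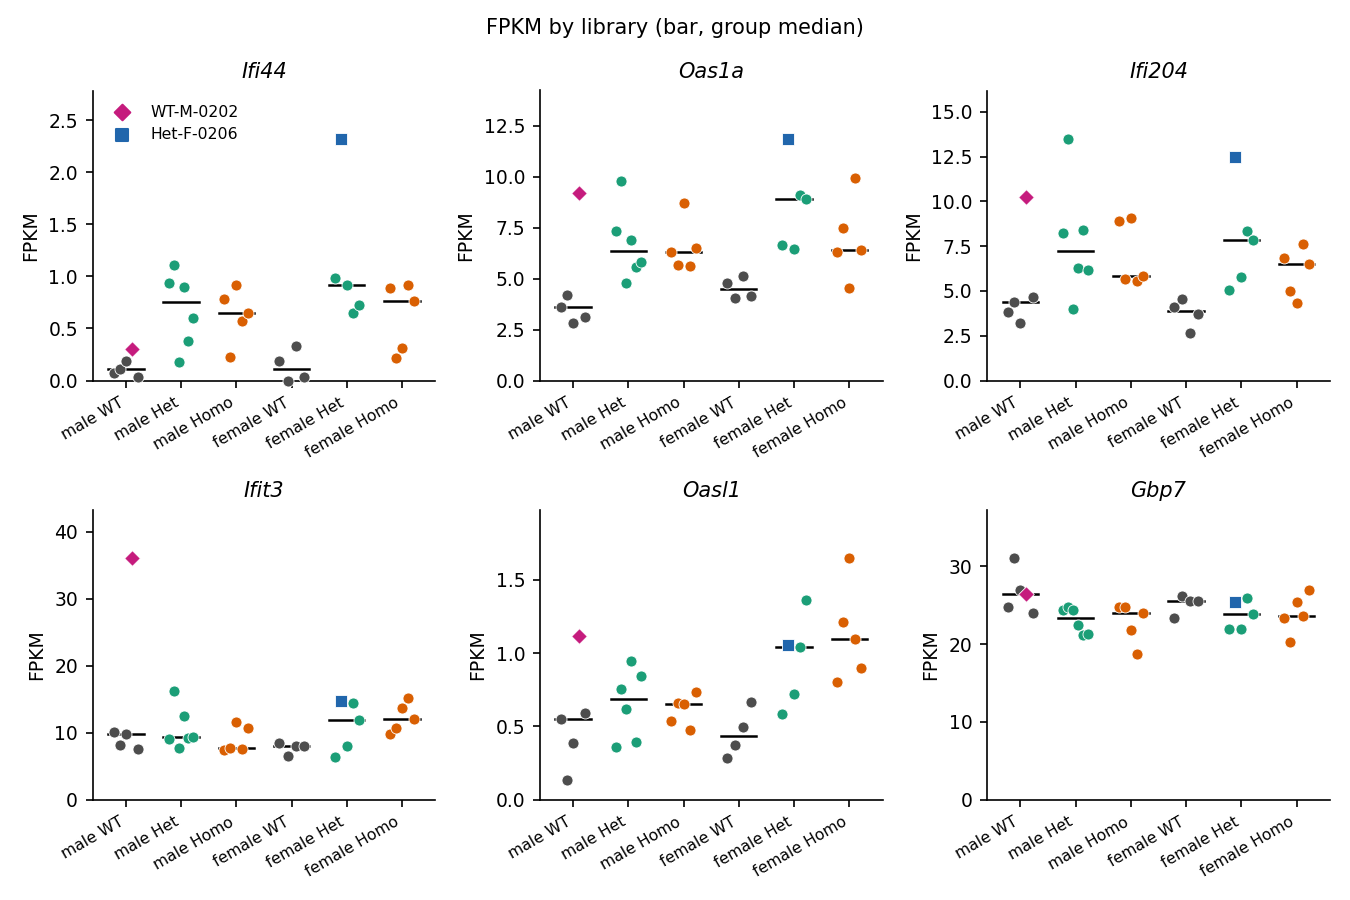
FPKM of *Ifi44*, *Oas1a*, *Ifi204*, *Ifit3*, *Oasl1* and *Gbp7* in each library (points) by group, with bars at the group medians, WT-M-0202 as a diamond and Het-F-0206 as a square. *Ifi44*, *Oas1a* and *Ifi204* have all 5 female Het libraries above all 4 female WT libraries, and WT-M-0202 is at 36.0 FPKM of *Ifit3*.

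In male mice, 0 of 42 genes passed the test in Homo or in Het against WT by limma, and the direction of the set depended on WT-M-0202. *Ifi44* had 0.0348, 0.0707, 0.111, 0.191 and 0.306 FPKM in WT, the last in WT-M-0202, and 0.227, 0.574, 0.652, 0.785 and 0.916 FPKM in Homo mice. A single Homo library fell within the WT range, below WT-M-0202. The log2 difference was 1.54 ± 0.46 (SE) with a limma adjusted p of 0.0593, and 1.74 ± 0.48 with an adjusted p of 0.0335 without WT-M-0202. In Het mice *Ifi44* was between 0.179 and 1.11 FPKM, and its difference of 1.58 ± 0.44 had a limma adjusted p of 0.14, or 1.46 ± 0.45 with an adjusted p of 0.152 without Het-M-0199 and Het-F-0206. *Ifi27l2a*, an interferon-induced gene of the ISG12 family, had 7.76, 8.04, 8.31, 10.7 and 13.2 FPKM in WT and 12.6, 14.2, 14.6, 30.6 and 48.0 FPKM in Homo mice. The groups met only at 12.6 FPKM in Homo-M-0189 and 13.2 FPKM in WT-M-0202, and the difference was 1.06 ± 0.36 (log2, SE; adjusted p = 0.087, limma). Without Homo-M-0189 it was 1.21 with a limma adjusted p of 0.0448, and with late mouse numbers alone it was 0.51 with an adjusted p of 0.826. In male Het mice *Ifi27l2a* ranged from 9.43 to 54.2 FPKM (1.1 ± 0.34, limma adjusted p = 0.179), and without Het-M-0199 and Het-F-0206 the difference was 1.25 ± 0.35 (adjusted p = 0.127). Its highest values, 54.2 FPKM in Het-M-0108, 48.0 FPKM in Homo-M-0109 and 40.7 FPKM in Het-M-0203, were in libraries with microglial sums of 20740, 21740 and 21510 FPKM and oligodendrocyte sums of 105, 65.3 and 28.2 FPKM, against 12.1 to 20.2 FPKM of the latter in male WT. Their part was not tested.

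*Gbp7* and *Gbp3*, neighbouring guanylate-binding GTPases on chromosome 3 (chr3:142530342-142550149 and chr3:142560026-142573209 of GRCm38, both plus strand), lay on the lower side in male mice. *Gbp7* had 23.9, 24.8, 26.4, 26.9 and 31.0 FPKM in WT and 18.8, 21.8, 23.9, 24.7 and 24.8 FPKM in Homo mice, and *Gbp3* had 8.71, 9.05, 9.5, 10.2 and 11.4 FPKM in WT and 6.67, 7.07, 8.21, 8.22 and 9.55 FPKM in Homo mice. The groups overlapped in both genes. The log2 differences fell short of the threshold, at -0.31 ± 0.10 (SE, limma adjusted p = 0.078) for *Gbp7* and -0.38 ± 0.13 (adjusted p = 0.0792) for *Gbp3*. In Het mice they were -0.28 ± 0.10 (limma adjusted p = 0.235) and -0.29 ± 0.12 (adjusted p = 0.301), and without Het-M-0199 and Het-F-0206 they were -0.28 ± 0.10 and -0.30 ± 0.13. *Gbp3* passed the adjusted p without Homo-M-0189 (0.0472, limma) or without Homo-M-0190 (0.0395), at folds under the 1.5-fold threshold. *Trim30a*, a TRIM-family regulator of inflammatory signalling, had 18.3, 20.6, 23.3, 26.6 and 28.9 FPKM in WT and a median of 20.7 FPKM in male Het mice (16.0 to 22.2), which overlapped (-0.29 ± 0.09, limma adjusted p = 0.187).

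Over the set, 13 genes were higher and 29 lower in male Homo than WT mice, with a median log2 fold change of -0.11 (all genes 0.03), and 19 were higher and 23 lower in male Het mice, with a median of -0.05 (all genes 0.01). Without WT-M-0202, 23 were higher and 19 lower in Homo mice, with a median of 0.04 (all genes 0.04). In Het mice 28 were then higher and 14 lower, with a median of 0.15 (all genes 0.02). Neutrophil markers summed to 43.9 to 349 FPKM in male WT, 0 to 190 FPKM in Het and 0 to 80.8 FPKM in Homo mice, and border macrophage markers to 13.0 to 36.5, 9.63 to 17.8 and 10.3 to 23.4 FPKM. Their part was not tested. Without scaling, the median of all genes was 0.11 in male Homo and 0.08 in male Het mice, and the members stood below it at -0.03 with 18 higher in Homo mice and at 0.02 with 23 higher in Het mice, so that the direction against 0 turned in Het mice. An unadjusted limma p below 0.05 was reached by 8 members in Homo mice (4 higher, 4 lower; 22.5% of all genes) and by 7 in Het mice (4 higher, 3 lower; 14.2%). These comparisons called 1.81% and 0.154% of all genes. Libraries of Homo mice lay above all of WT in 0 members (all genes 2.56%) and below in 0 (1.37%), and those of Het mice likewise in 0 (0.515% and 0.326%).

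Leaving out WT-M-0202 also added calls. *Oas1a*, at 9.20 FPKM in WT-M-0202 and 2.80, 3.13, 3.61 and 4.19 FPKM in the other male WT libraries, had 5.59, 5.66, 6.30, 6.48 and 8.69 FPKM in Homo mice and 4.80 to 9.81 FPKM in Het mice. Every male Homo and Het library was above those 4 WT libraries and 1 Het library was above WT-M-0202. With all libraries, the log2 difference was 0.54 ± 0.23 in Homo (limma adjusted p = 0.164) and 0.57 ± 0.22 in Het mice (adjusted p = 0.289). Without WT-M-0202 it was 0.82 ± 0.20 in Homo (limma adjusted p = 0.0192) and 0.84 ± 0.19 in Het mice (adjusted p = 0.0461). The calls then were *Oas1a* and *Ifi44* in Homo mice and *Oas1a* in Het mice. Of all genes, 3.53% and 0.314% were then called, against 1.81% and 0.154% with all libraries. Because this library was singled out by its levels of the same genes, the p-values, calls and overlap counts without it are not independent evidence. Leaving it out lowers the highest male WT value in 29 of 42 members (69%), against 25.8% of all genes. All Homo libraries then lay above WT in 6 members, *Ifi204*, *Oas1a*, *Usp18*, *Rtp4*, *Ifi27l2a* and *Ifi44*, against 5.87% of all genes, and all Het libraries in *Dhx58* and *Oas1a*, against 1.57%. The 5 Oas members were higher in both comparisons with or without this library, and under both other scalings. The Ifit members went from 0 to 1 of 3 higher in Homo and from 0 to 2 of 3 in Het mice (without scaling, *Ifit2* was on the higher side in Homo mice). The 3 Gbp genes lay on the lower side in both comparisons in each of these fits. *Ifit3*, at 7.37, 7.59, 7.68, 10.8 and 11.7 FPKM in male Homo mice, lay at -0.49 ± 0.29 (log2, SE) from WT with all libraries and at -0.09 ± 0.22 without WT-M-0202, with limma adjusted p-values of 0.321 and 0.833.

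**Figure D4:**
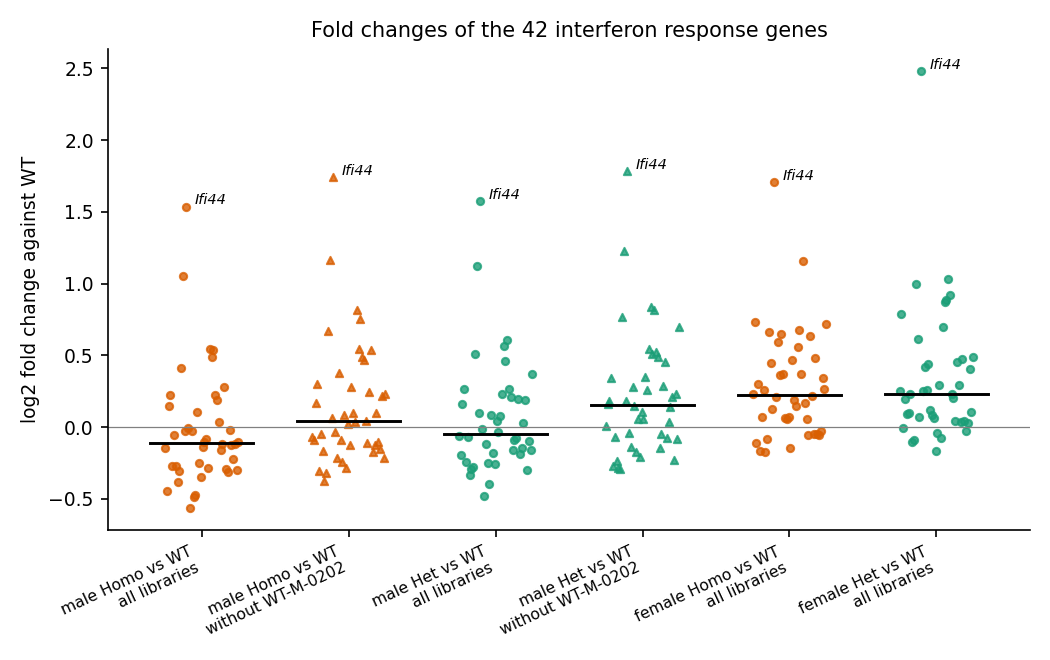
Log2 fold changes against WT of the same sex (y axis) for the 42 genes (points) in 4 comparisons, with the male comparisons repeated without WT-M-0202 (triangles), bars at the medians and *Ifi44* named. The medians in males move from -0.11 to 0.04 in Homo and from -0.05 to 0.15 in Het mice. Those over all genes move from 0.03 to 0.04 in Homo and from 0.01 to 0.02 in Het mice.

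The receptor genes and the factors downstream of them did not pass the test in any of these comparisons. *Ifnar1*, whose product is the signalling chain bound by TYK2, had 39.9, 40.2, 42.6 and 47.3 FPKM in female WT, 42.2, 44.7, 45.9, 46.2 and 47.5 FPKM in Het, and 40.9, 42.1, 44.0, 47.0 and 49.0 FPKM in Homo mice. In males it had 36.3, 38.8, 41.4, 41.9 and 43.3 FPKM in WT, 37.6 to 52.1 FPKM in Het (median 45.6) and 38.9, 43.7, 43.9, 49.4 and 55.2 FPKM in Homo mice. The groups overlapped in both sexes. *Ifnar2*, which binds the ligand with high affinity, had 172.6, 182.4, 184.6 and 197.5 FPKM in female WT, 175.9, 194.5, 196.0, 200.1 and 202.1 FPKM in Het, and 180.7, 186.9 and 194.0 FPKM in 3 Homo mice, with the other two above these at up to 202.1 FPKM. In males it had 172.0, 172.4, 183.4, 188.9 and 200.8 FPKM in WT, 127.3 to 212.1 FPKM in Het (median 174) and 134.0, 144.6, 165.6, 180.1 and 198.8 FPKM in Homo mice. The lowest male values, 127 FPKM in Het-M-0100 and 134 FPKM in Homo-M-0093, were in mice with early numbers, a split described below.

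*Stat2* had 9.08, 9.24, 9.65 and 10.0 FPKM in female WT, 9.44, 9.58, 9.90, 10.0 and 10.2 FPKM in Het, and 8.40, 8.87, 9.17, 9.31 and 10.4 FPKM in Homo mice. In males it had 7.40, 8.76, 8.77, 9.11 and 13.2 FPKM in WT, 8.30 to 12.9 FPKM in Het (median 9.51) and 8.57, 8.87, 9.35, 10.7 and 11.2 FPKM in Homo mice. All groups overlapped, and WT-M-0202 was the highest library. *Irf9*, the DNA-binding part of the complex, had 40.8, 45.4, 45.7 and 47.4 FPKM in female WT, 39.3, 42.4, 43.4, 45.7 and 48.4 FPKM in Het, and 38.3, 39.1, 41.7, 41.8 and 42.4 FPKM in Homo mice. In males it had 33.6, 35.6, 39.0, 40.8 and 42.9 FPKM in WT, 37.6 to 48.8 FPKM in Het (median 40.1) and 32.3, 35.4, 37.0, 39.5 and 40.4 FPKM in Homo mice. These groups overlapped as well. *Irf7* had 5.48, 5.85, 7.22 and 7.36 FPKM in female WT, 5.14, 5.29, 5.63, 6.21 and 6.61 FPKM in Het, and 3.55, 6.57, 7.25, 7.40 and 11.2 FPKM in Homo mice. In males, beside the WT values above, it had 3.33 to 12.3 FPKM in Het (median 6.52) and 4.14, 5.00, 5.34, 8.72 and 8.92 FPKM in Homo mice, again with overlap. Over the 5 genes the log2 differences from WT were between -0.16 and 0.09 in females, with limma adjusted p-values of 1, and between -0.34 and 0.11 in males, with adjusted p-values of 0.281 or more.

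Homo and Het mice were compared with each other to separate the loss of the second *Bin1* copy from the Cre allele, and 0 of 42 genes passed in either sex by limma (0% of all genes in males, 0.0118% in females). An unadjusted p below 0.05 was reached in males by 1 member, *Trim25*, the ubiquitin ligase that activates RIG-I (-0.32 ± 0.12, log2 ± SE, chosen after its value was seen), where 3.85% of all genes reached it, and in females by 0, where 2.06% did. Without the library labelled Het-M-0199 and that labelled Het-F-0206, *Trim25* was at -0.34 ± 0.13. The difference between the sexes in the Homo effect was tested as an interaction, which called 0 members and 0% of all genes by limma. At an unadjusted p below 0.05 there were 4 members, a share of 9.52% beside 9.29% of all genes, and each had a lower fold in males than in females, with log2 differences of -1.13 ± 0.42 (SE) for *Ifit3*, -1.15 ± 0.53 for *Ifit1*, -1.17 ± 0.51 for *Cmpk2* and -0.84 ± 0.36 for *Ifitm3*. The limma adjusted p-values were 0.525 to 0.528, and without WT-M-0202 the differences were -0.74 ± 0.31 for *Ifit3*, -0.81 ± 0.48 for *Ifit1*, -0.82 ± 0.46 for *Cmpk2* and -0.61 ± 0.33 for *Ifitm3*, of which 1, that of *Ifit3*, kept an unadjusted limma p below 0.05. These were chosen after their values were seen. Female and male WT mice differed in 0 members (0.0473% of all genes), with 1 at an unadjusted limma p below 0.05, *Irf9* (0.23 ± 0.10), where 2.91% of all genes were.

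Mouse numbers fall into an early and a late range that is unevenly spread: 2 of 6 male Het, 3 of 5 male Homo and 1 of 4 female WT mice have early numbers, and the labels give no date. In a fit of male Het and Homo mice with genotype as a term, early and late numbers differed in 2 members by limma, where 7.98% of all genes were called, and 12 were under an unadjusted p of 0.05, as were 33.1% of all genes. *Oas2* had 0.898, 1.41, 1.84, 2.25 and 2.59 FPKM in early and 0.123, 0.275, 0.314, 0.437, 0.459 and 1.69 FPKM in late numbered mice. All early values but 2 exceeded every late one, and the highest late value was Het-M-0203. The log2 difference of *Oas2* was 1.79 ± 0.45 (SE, limma adjusted p = 0.0238). *Gbp2* had 2.05 to 3.09 FPKM in early and 2.81 to 4.69 FPKM in late numbered mice, and its level was lower in early numbers by a log2 difference of -0.68 ± 0.20 (limma adjusted p = 0.0398). Both calls of members were lost without Het-M-0100, Homo-M-0093, Homo-M-0189 or Homo-M-0190, and the number of all genes called, 1383, was 1 without Het-M-0100, 1 without Homo-M-0189 and 2475 without Het-M-0203. Only *Gbp2* was lost without Het-M-0197, Het-M-0199, Het-M-0210 or Homo-M-0109, and only *Oas2* without Het-M-0108. The 8 microglial markers summed to 18760 to 24500 FPKM in early and 21510 to 26240 FPKM in late numbers, and 3 oligodendrocyte markers to 18.6 to 105 FPKM and 12.9 to 28.2 FPKM. Het-M-0203, the late library highest in *Oas2*, had the lowest microglial and the highest oligodendrocyte sum among late male Het and Homo libraries. The part of these markers in the differences was not tested. Early numbers were absent from male WT, so in males number range and the contrast with WT partly coincide. With late numbers alone, male Homo mice had 20 members higher and 22 lower (median 0.00), and male Het mice 23 higher and 19 lower (median 0.007). Female Homo mice then had 30 higher and 12 lower (median 0.29), and female Het mice 37 higher and 5 lower (median 0.20).

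Of 62 further genes of the interferon pathway, 58 were tested. In male Homo mice 1 was called higher, *Gbp6* (0.99 against 0.38 FPKM, 1.15 ± 0.32, limma adjusted p = 0.0479), and 1 lower, *Ifi207*, a PYHIN gene (0.56 against 1.32 FPKM, -1.16 ± 0.31, adjusted p = 0.0391). In female Homo mice *Gbp6* was called higher (0.98 against 0.21 FPKM, 1.87 ± 0.34, limma adjusted p = 0.0134). Of all genes, 1.81% were called in male and 0.071% in female Homo mice. In Het mice of either sex 0 were called, beside 0.154% of all genes in males and 0.13% in females. An unadjusted limma p below 0.05 was reached by 13 in male Het mice (22.4%, all genes 14.2%) and by 6 in female Het mice (10.3%, all genes 3.95%). It was reached by 19 in male Homo mice (32.8%, all genes 22.5%) and by 5 in female Homo mice (8.62%, all genes 3.49%). The signalling genes *Jak1*, *Tyk2* and *Irf3* differed by -0.18 to 0.20 (log2) in the comparisons with WT, with limma adjusted p-values of 0.334 or more. WT-M-0202 was the highest male WT library in 27 of the 58 genes (46.6%), against 25.8% of all genes tested. In early against late numbers, 5 were called higher and 2 lower, where 7.98% of all genes were called. Among them were *Irf3*, higher (0.60 ± 0.12, limma adjusted p = 0.016), and *Lgals9*, lower (-0.59 ± 0.13, adjusted p = 0.0171).

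After the mean of each group was taken off, each member was compared with the mean of the other 41 over the 30 libraries, as a description without a test. The median Pearson correlation was 0.46 and the median Spearman correlation 0.41. Closest to the rest were *Ifit3* (r = 0.92), *Rtp4*, a Golgi chaperone of receptors (r = 0.89), and *Oas1a* (r = 0.86), and below 0 were *Ifih1* (-0.21), *Ifnar2* (-0.05) and *Eif2ak2* (-0.03), which encodes the RNA-activated kinase PKR. Without WT-M-0202 the medians were 0.37 and 0.34, and *Ifit3* (r = 0.84), *Rtp4* (r = 0.80) and *Oas1a* (r = 0.76) remained above 0.7. Without WT-M-0202 and Het-M-0108, the libraries farthest from the median once group means were taken off, the median Pearson correlation was 0.30 (28 libraries). All points share library depth and scaling. *Ifit3*, *Oas1a*, *Ifi204*, the Gbp genes and *Trim30a* have close copies in the mouse genome between which the estimate of abundance could divide reads, so single values of these genes are uncertain.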

How the data were processed

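RNA of sorted microglia was analysed in 30 libraries of 6 groups, as named by the labels. Per the study's methods and the labels, the authors used the OSA4 aligner and the mm10 genome, took gene levels from RSEM, removed samples of poor quality and deposited linear FPKM values. A count model such as their DESeq2 fit does not apply to FPKM. The deposited table has 6 further columns with no sample in the labels used here, which were left out. Depth relative to the median library, from the steps between low values, was 0.669 to 1.41. Read totals are not known, and intervals for counting error cannot be given.

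Each library was divided by a median-of-ratios factor (genes of mean FPKM 1 or more), 0.1 was added, and log2 values of 16897 genes (mean FPKM 0.1 or more) were fitted in limma 3.58.1 under R 4.3.3, with all 6 groups sharing 1 estimate of the spread and an intensity trend. A call needed a Benjamini-Hochberg adjusted p below 0.05 over all genes and a change of more than 1.5-fold. The comparison of mouse numbers used 17326 genes. Overlap between groups was read from the deposited FPKM. The fit was tested on simulated data. The labels give a mouse number per library and do not say whether tissue was pooled, so p-values measure the spread between libraries.

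Named with their library values were members called in any comparison, the 4 members of smallest p in each comparison with WT, and *Ifnar1*, *Ifnar2*, *Stat2*, *Irf9* and *Irf7*. Outside this rule, library values were also given for *Ifit3*, *Isg15* and *Usp18*, which were chosen after their values were seen. Of the other pathway genes, values are given for those called, or for examples where many were, and for *Jak1*, *Tyk2*, *Irf3* and *Ifnb1*. Values in females are also given for *Oas1b*, *Oas1c* and *Oas1g*. A further gene of the rule is not reported here. The members and lists were chosen with earlier results of these data known. Gene positions came from GENCODE M21 and promoters from RefSeq (GRCm38.p6), searched with Python 3.11.15. The alternatives changed the pseudocount, filter, scaling, library weights, groups fitted, fold threshold and treatment of mouse numbers, or left libraries out.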

Additional observations from a re-analysis of the deposited data

Results flagged for a closer look

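In each group of 4 to 6 libraries, the highest and lowest value of each gene was set against its gap to the next, by Dixon's criterion. Of 252 such tests 27 passed, and chance alone passes about 1 in 20 groups. WT-M-0202 gave 17 of the 27, all as the highest of the male WT libraries. Its FPKM was 36.0 for *Ifit3*, 13.6 for *Ifit2* and 5.43 for *Ifit1* in the Ifit family. It was 19.2 for *Isg15*, 17.5 for *Usp18* and 20.9 for *Irf7*. It was 9.20 for *Oas1a*, 0.245 for *Oas3*, 10.2 for *Ifi204* and 3.78 for *Zbp1*. Among the other effectors it was 2.36 for *Rsad2*, 2.95 for *Cmpk2*, 36.2 for *Ifitm3*, 6.23 for *Isg20*, 4.34 for *Mx1*, 31.7 for *Rtp4* and 39.7 for *Slfn2*, a Schlafen gene of T cell and myeloid quiescence.

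Homo-F-0234 stood apart from the other female Homo libraries in 3 genes, at 16.7 FPKM of *Ddx58*, the gene of the RNA sensor RIG-I, 7.78 FPKM of *Oasl2* and 1.85 FPKM of *Rsad2*. In the female Het group, *Ifi44* was at 2.32 FPKM in the library labelled Het-F-0206, *Slfn5* at 2.36 FPKM in Het-F-0220 and *Ifnar2* at 175.9 FPKM, below the others, in Het-F-0205. In male Het mice, *Ddx58* was at 25.7 FPKM in Het-M-0100 and *Oas3* at 0.666 FPKM in Het-M-0108. *Oas1a* was at 8.69 FPKM in Homo-M-0109, and *Dtx3l*, a ubiquitin ligase that pairs with *Parp9*, was at 18.9 FPKM in WT-F-0192.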

How the results depend on the processing

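Depth was known only in relative terms, and members below 1 FPKM depend on the pseudocount. Calls of members in female Homo mice, in Homo against Het mice of either sex, in the interaction with sex and between WT sexes were 0 under all alternatives run. For female Het mice the count of 1 became 0 with a mean FPKM of at least 1, where *Ifi44* drops out by construction, and 0 with only the groups compared, with late mouse numbers only, without Het-F-0206 and Het-M-0199, and without these and WT-M-0202. Leaving out 1 library gave 0 to 1. For male Homo mice it was 2 (3.39% of all genes called), and for male Het mice 1 (0.474%), without these 3 libraries. In these, leaving out 1 library gave 0 to 2 and 0 to 1, the upper values without WT-M-0202. For early against late numbers the count of 2 became 1 with a pseudocount of 1, 0 without a filter, 4 with array weights, 1 without Het-F-0206 and Het-M-0199 and likewise without all 3, and 4 with no fold change threshold, where *Ifnar2* and *Bst2* enter by construction. It ranged from 0 (without Het-M-0100, Homo-M-0093, Homo-M-0189 or Homo-M-0190) to 5 (without Het-M-0203 or Homo-M-0097). The calls over all genes, 1383 with all libraries, moved as well. They were 1, 594, 1 and 912 in the former fits, in that order, and 2475 and 1779 in the latter. The covariation median of 0.458 was 0.487 with a pseudocount of 1, 0.547 without scaling, 0.517 with quantile normalization, and 0.367 to 0.501 with 1 library left out. Where no construction is named, the cause was not tested. The joint removal of the 3 libraries and the settings tried for the covariation were chosen after seeing the data. No paired analysis was possible because the groups share no mouse numbers.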
